A study of Caenorhabditis elegans with 26 samples.

Results

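The heat shock response genes described here include 6 hsp-16 small heat shock protein genes of Caenorhabditis elegans: hsp-16.1, hsp-16.11, hsp-16.2, hsp-16.41, hsp-16.48 and hsp-16.49. The others are the inducible Hsp70 genes hsp-70, F44E5.4 and F44E5.5, and hsf-1, which encodes the transcription factor of the response. All were chosen by symbol, as 10 of the 42533 gene symbols of a read count table from whole day 1 adults. In AEF149, one of 5 strains that differ in the neuropeptide gene flp-17, hsp-16.2 and hsp-16.41 were 9.58-fold and 21.2-fold higher than in the control strain AEF231, in 5 of 5 libraries. In AEF373 hsp-16.41 was 7-fold higher, and no other comparison of hsp-16.2 or hsp-16.41 with AEF231 passed the test. The transcript of hsf-1 stayed within 114 and 138 CPM in the 5 strain means.

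HSF-1 is the transcription factor that binds heat shock elements in promoters and turns on chaperone genes when proteins unfold. The proteins of the hsp-16 genes are small heat shock proteins, which hold unfolded proteins in a soluble form until other chaperones refold them. HSP-70 and the products of F44E5.4 and F44E5.5 belong to the inducible Hsp70 chaperones, which bind and release unfolded chains with ATP. In worms without stress the genes of both families are read at very low levels, and promoter fusions of hsp-16.2 are widely used as reporters of heat and other stress.

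The study held 26 poly(A) RNA-seq libraries. All 5 strains carried the reporter zcls4[hsp-4p::GFP]V, in which the promoter of the ER chaperone gene hsp-4 drives GFP. AEF276 (5 libraries) also carried the loss-of-function allele flp-17(n4894)IV. AEF378 (5 libraries) carried the extrachromosomal array ashEx67, with gcy-31p::flp-17::GFP and the marker coel::RFP. AEF373 (5 libraries) carried an array with flp-17p::FLP-17::flp-17 3UTR and the marker unc-122p::mCherry; it derives from a strain named YUW133, and a flp-17 null background was lost in the crosses. AEF149 (5 libraries) carried the array ssrEx1193, with flp-17p::flp-17::GFP and the marker myo-3p:mCherry. AEF231 (6 libraries) had the reporter alone and was the control. FLP-17 is a neuropeptide of the FMRFamide-related family, and the promoters of gcy-31 and flp-17 are known to be active in BAG sensory neurons. Each array strain is a single transmitted array, so that the array and the strain cannot be told apart. Worms with arrays were sorted for their fluorescent marker 24 hours before collection, while AEF276 and AEF231 worms were only washed and replated, so that sorting and the presence of an array cannot be told apart either. Each sample was a pool of 200 to 500 animals, and in such bulk samples fewer cells of a type and less RNA per cell cannot be told apart.

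Library totals ranged from 9659877 to 15528669 counts, and 20 libraries were of batch 1 and 6 of batch 2, by the labels. All libraries of AEF276 and AEF149 were of batch 1, while AEF378, AEF373 and AEF231 had 2 libraries of batch 2 each. Values are counts or TMM-scaled CPM, and 13315 genes had counts high enough to be tested. The flp-17 transcript fitted the labels: it was at 0.310 ± 0.307 CPM in AEF276, 7.59 ± 1.01 in AEF378, 301 ± 29.3 in AEF373, 388 ± 23.4 in AEF149 and 3.80 ± 1.49 in AEF231 (SD). Markers of body wall muscle, intestine, neurons and germ line were read in every strain. The labels call the libraries replicates without naming separate cultures, so the p-values measure only the spread between these libraries. Log2 fold changes, their standard errors and adjusted p are from edgeR's quasi-likelihood test with strain and batch terms and Benjamini-Hochberg adjustment over all tested genes, with a threshold of 0.05.

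The genes lie at 5 loci of the WBcel235 (ce11) assembly. The pair hsp-16.2 and hsp-16.41 lies on chromosome V, with hsp-16.2 (WBGene00002016) at 1804334 to 1804957 on the minus strand and hsp-16.41 (WBGene00002018) at 1805178 to 1805875 on the plus strand. They are read away from each other, with 220 bases between the transcript starts, and each has 2 exons, which add up to 578 bases in hsp-16.2 and 640 bases in hsp-16.41. The other 4 hsp-16 genes lie within 3312 bases of the same chromosome, from 9087293 to 9090604. There hsp-16.1 (WBGene00002015, minus strand) and hsp-16.48 (WBGene00002019, plus strand) form a divergent pair 348 bases apart, and hsp-16.49 (WBGene00002020, minus strand) and hsp-16.11 (WBGene00002017, plus strand) form another pair, 310 bases apart. The second exons are of equal length between the pairs, 312 bases in hsp-16.1 and hsp-16.11 and 294 bases in hsp-16.48 and hsp-16.49. F44E5.4 (WBGene00009691) and F44E5.5 (WBGene00009692) form another divergent pair on chromosome II, 11757107 to 11759311 and 11759662 to 11761861, with 350 bases between them. On chromosome I, hsp-70 (WBGene00002026) lies at 9320325 to 9322519 with 3 exons, and hsf-1 (WBGene00002004) at 11953507 to 11963085 with 9 exons.

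**Figure D1:**
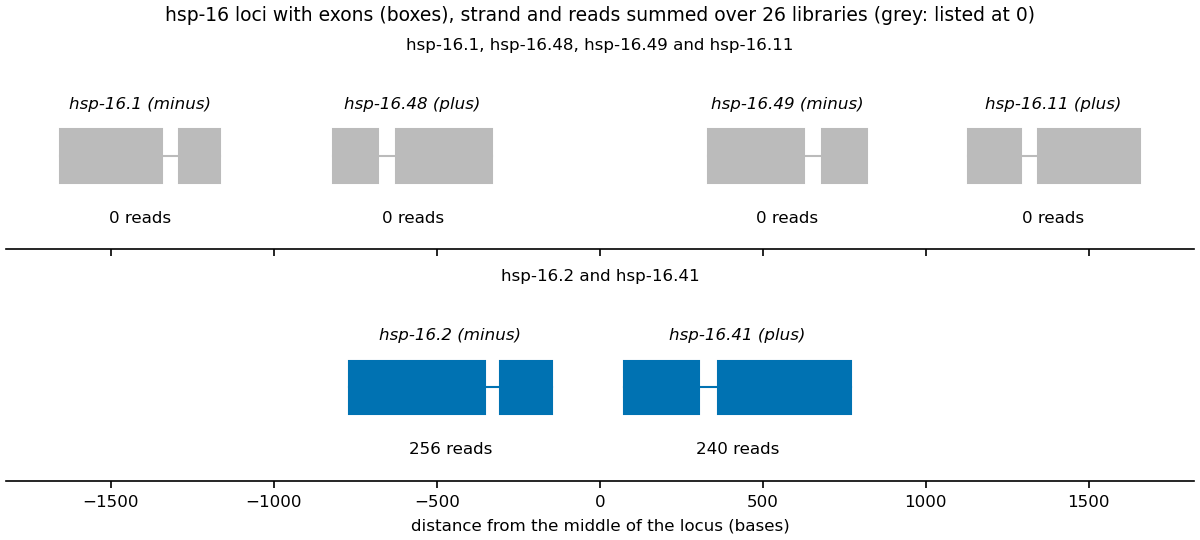
Exon maps of the 2 hsp-16 loci on chromosome V, with distance along the locus in bases on the x axis, boxes for exons, the strand beside each name, and the reads of each gene summed over 26 libraries. Reads fell on hsp-16.2 (256) and hsp-16.41 (240), while the 4 genes of the other locus are listed at 0.

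The table lists 5 of the 10 genes at 0 in all 26 libraries: hsp-16.1, hsp-16.11, hsp-16.48, hsp-16.49 and F44E5.4. Each of them has a close copy in the genome: hsp-16.1 and hsp-16.11 are near copies of each other, as are hsp-16.48 and hsp-16.49, and F44E5.4 and F44E5.5. How reads that match several positions were counted is not stated in the labels or notes, so a listed 0 sets no limit on what these genes were read at. Of the 19169 protein-coding symbols in the table, 974 (5.08%) were listed at 0 in every library. The other 5 genes had reads: 256 for hsp-16.2, 240 for hsp-16.41, 162 for hsp-70, 99 for F44E5.5 and 37022 for hsf-1, summed over 26 libraries. Of these, hsp-16.2, hsp-16.41 and hsf-1 passed the filter on low counts, and hsp-70 and F44E5.5 did not. A count of 0 in 1 library allows up to 3 counts, or 0.215 to 0.305 CPM by depth, and covers counting error only.

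The 2 hsp-16 genes passed the filter only through AEF149. The filter asked for about 0.891 CPM in as many libraries as the smallest strain has, and in AEF149 all 5 libraries lay above that level for both genes. Elsewhere 1 library of AEF378 and 1 of AEF373 did so for hsp-16.2, and 2 libraries of AEF373 for hsp-16.41. A gene that enters in this way had to differ between AEF149 and other strains. Values below from batch 1 alone, from DESeq2 and from fits without 1 library also come from fits with a filter. Each comparison of strains for the pair is therefore also given from a fit of all 24897 genes with at least 1 count. In that fit 10.4% of genes were higher in AEF373 than in AEF231, and 4.07% were higher in AEF149 than in AEF231. The share higher in AEF149 was 6.18% against AEF276, 4.36% against AEF378 and 6.79% against AEF373.

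In AEF149, hsp-16.41 was at the highest level of the 5 strains. Its counts were 33, 51, 40, 27 and 21 in the AEF149 libraries, against 0 to 2 with a median of 1 in the AEF231 libraries. The lowest AEF149 library, at 1.83 CPM, was above the highest AEF231 library, at 0.182 CPM, and the strains did not overlap. The means were 2.72 ± 0.764 CPM in AEF149 and 0.0903 ± 0.0576 CPM in AEF231 (SD, n = 5 and 6). The log2 fold change in AEF149 was 4.41 ± 0.58 (SE, adjusted p = 1.74e-07 by edgeR), a 21.2-fold higher level, and 4.42 ± 0.55 without the filter (adjusted p = 1.67e-13 by edgeR). Its 95% interval, 3.28 to 5.54, rests on 6 reads of the gene in the 6 control libraries.

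The divergent neighbour hsp-16.2 rose as well in AEF149. Counts were 31, 37, 35, 39 and 28 in the AEF149 libraries, against 0 to 5 with a median of 2.5 in the AEF231 libraries. Again every AEF149 library lay above every AEF231 library, with means of 2.74 ± 0.499 CPM in AEF149 and 0.222 ± 0.166 CPM in AEF231. The log2 fold change was 3.26 ± 0.51 (adjusted p = 4.86e-06 by edgeR), with a 95% interval of 2.27 to 4.25, and 3.27 ± 0.47 without the filter (adjusted p = 3.56e-10 by edgeR). The 2 genes together are 2 of the 3 tested genes described here, and 6.51% of all tested genes were higher in AEF149 than in AEF231. By log2 fold change they stood 7th and 17th from the top of 13315 genes, hsp-16.41 before hsp-16.2. Both entered that fit only through their level in AEF149, so the count of 2 of 3 and these ranks are a description and no test. In the fit without the filter, where both passed as well, 4.07% of genes were higher in AEF149. In a two-sided exact permutation test of the mean log2(CPM + 0.5) over libraries, AEF149 was 2.42 above AEF231 for hsp-16.41 and 2.19 above it for hsp-16.2. Each exact permutation test gave p = 0.00216, the smallest that 462 splits of 5 and 6 libraries can give. Permutation p-values here and below are unadjusted.

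**Figure D2:**
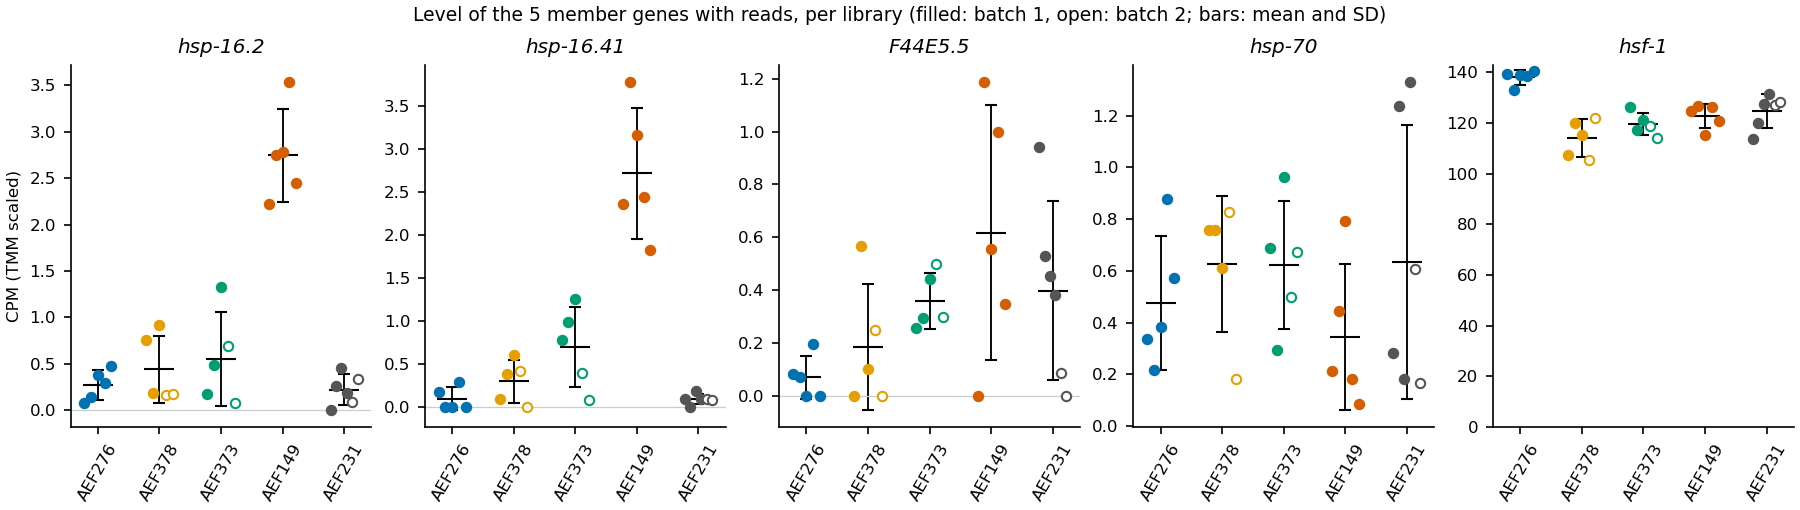
CPM of hsp-16.2, hsp-16.41, F44E5.5, hsp-70 and hsf-1 in each of 26 libraries (points, one panel a gene), by strain, with the mean and SD as bars. For both hsp-16 genes the AEF149 libraries lie above all libraries of the other 4 strains, and for hsf-1 the AEF276 libraries, at 133 to 140.4 CPM, lie above those of AEF231.

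The AEF149 libraries, all of batch 1, also lay above every library of the other strains, of either batch. Against AEF276 the log2 fold change in AEF149 was 4.79 ± 0.58 for hsp-16.41 (adjusted p = 5.03e-08 by edgeR) and 3.31 ± 0.49 for hsp-16.2 (adjusted p = 3.83e-06 by edgeR). AEF378 carries flp-17 under another promoter, and against it AEF149 was higher by 2.71 ± 0.53 for hsp-16.41 (adjusted p = 0.000156 by edgeR) and by 2.33 ± 0.50 for hsp-16.2 (adjusted p = 0.00045 by edgeR). AEF373 carries flp-17 under its own promoter, as AEF149 does. Against AEF373 the AEF149 libraries were higher by 1.60 ± 0.46 for hsp-16.41 (adjusted p = 0.00593 by edgeR) and by 1.96 ± 0.48 for hsp-16.2 (adjusted p = 0.00137 by edgeR), on the log2 scale. Without the filter the values for hsp-16.41 were 4.82 ± 0.56 against AEF276 (adjusted p = 1.75e-15 by edgeR), 2.72 ± 0.51 against AEF378 (adjusted p = 4.04e-06) and 1.61 ± 0.44 against AEF373 (adjusted p = 0.00294). For hsp-16.2 they were 3.35 ± 0.46 against AEF276 (adjusted p = 6.79e-11 by edgeR), 2.35 ± 0.46 against AEF378 (adjusted p = 1.27e-05) and 1.97 ± 0.45 against AEF373 (adjusted p = 0.000174), so that both genes passed in all 3 comparisons in either fit. Without AEF373 replicate 3 the value for hsp-16.2 was 2.66, and without AEF276 replicate 4 that for hsp-16.41 against AEF276 was 5.67. The share of all tested genes that was higher in AEF149 was 9.58% against AEF276, 7.86% against AEF378 and 13.2% against AEF373. The 4 comparisons of AEF149 use the same 5 libraries.

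AEF373 had the next highest level of hsp-16.41. Counts of hsp-16.41 in AEF373 were 9, 10 and 17 in batch 1 and 4 and 1 in batch 2, against 0 to 2 in AEF231. The 3 batch 1 libraries and 1 batch 2 library were above all AEF231 libraries, and the other batch 2 library, at 0.0748 CPM, was within the AEF231 range. The mean was 0.698 ± 0.469 CPM in AEF373, with a log2 fold change of 2.81 ± 0.65 against AEF231 (adjusted p = 0.000736 by edgeR, 95% interval 1.53 to 4.08), and 2.81 ± 0.62 without the filter (adjusted p = 7.95e-05 by edgeR). In batch 1 alone, the log2 fold change was 3.31 (adjusted p = 0.000433 by edgeR). The gene was 1 of the 3 tested here to pass in AEF373, where 17.9% of all tested genes were higher than in AEF231. By the exact permutation test, without a batch term, the AEF373 mean log2(CPM + 0.5) was 0.92 above that of AEF231 (p = 0.013).

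The partner gene hsp-16.2 did not pass the test in AEF373. Its counts were 2, 5 and 18 in batch 1 and 7 and 1 in batch 2, against 0 to 5 in AEF231, and 3 of the 5 AEF373 libraries were above all AEF231 libraries. One library held 18 of the 33 AEF373 reads of the gene. The log2 fold change was 1.30 ± 0.58 (adjusted p = 0.0786 by edgeR, 95% interval 0.16 to 2.43), and 1.30 ± 0.53 without the filter (adjusted p = 0.0736 by edgeR). It was 0.70 without the library of 18 reads, AEF373 replicate 3 (adjusted p = 0.46 by edgeR). Without AEF373 replicate 1, AEF373 replicate 5 or AEF231 replicate 6 it passed the threshold, at 1.62 (adjusted p = 0.0306 by edgeR), 1.54 (adjusted p = 0.0365 by edgeR) and 1.66 (adjusted p = 0.0374 by edgeR).

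In AEF378 neither gene passed. Counts of hsp-16.41 were 1, 4, 6, 5 and 0 in AEF378 libraries, and those of hsp-16.2 were 8, 2, 9, 2 and 2. For hsp-16.41, 3 of 5 AEF378 libraries were above all AEF231 libraries, and the log2 fold change was 1.70 ± 0.76 (adjusted p = 0.133 by edgeR, 95% interval 0.21 to 3.19). For hsp-16.2, 2 of 5 were, with a log2 fold change of 0.93 ± 0.61 (adjusted p = 0.347 by edgeR, 95% interval -0.28 to 2.13). Without the filter the values were 1.70 ± 0.71 for hsp-16.41 (adjusted p = 0.148 by edgeR) and 0.92 ± 0.56 for hsp-16.2 (adjusted p = 0.439 by edgeR). These intervals hold the log2 fold changes measured in AEF373. The direct comparison of AEF378 with AEF373 gave -1.10 ± 0.57 for hsp-16.41 (adjusted p = 0.235 by edgeR) and -0.37 ± 0.55 for hsp-16.2 (adjusted p = 0.753 by edgeR), in a comparison in which 9.6% of all tested genes passed. Without the filter it gave -1.11 ± 0.54 for hsp-16.41 (adjusted p = 0.295 by edgeR) and -0.38 ± 0.51 for hsp-16.2 (adjusted p = 0.784 by edgeR). Without AEF373 replicate 3 the value for hsp-16.2 was 0.22. Of the 3 tested genes 0 passed in AEF378 against AEF231, where 13.6% of all tested genes passed in either direction. The unadjusted p by edgeR was 0.0302 for hsp-16.41, 0.139 for hsp-16.2 and 0.00968 for hsf-1. The adjusted p by DESeq2 was 0.0938 for hsp-16.41, 0.326 for hsp-16.2 and 0.0437 for hsf-1.

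In AEF276, the strain with the flp-17 loss-of-function allele, neither gene of the pair passed. Counts of hsp-16.41 were 2, 0, 0, 3 and 0 in the AEF276 libraries, and those of hsp-16.2 were 1, 2, 4, 3 and 5, and both ranges overlapped those of AEF231. The log2 fold changes were -0.38 ± 1.02 for hsp-16.41 (adjusted p = 0.835 by edgeR, 95% interval -2.38 to 1.62, and -1.26 without AEF276 replicate 4) and -0.05 ± 0.74 for hsp-16.2 (adjusted p = 0.972 by edgeR, 95% interval -1.51 to 1.41). Without the filter they were -0.40 ± 0.94 (adjusted p = 0.944 by edgeR) for hsp-16.41 and -0.07 ± 0.66 (adjusted p = 1 by edgeR) for hsp-16.2. With 20 reads of the 2 genes in 5 libraries, these intervals are wide and hold changes in either direction.

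**Figure D3:**
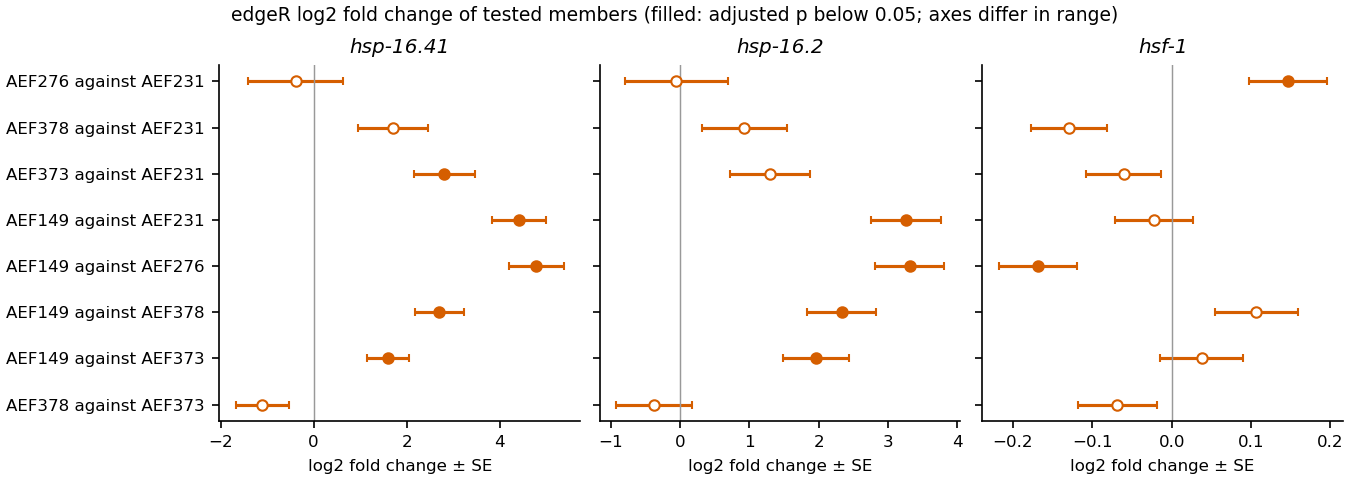
Log2 fold change with its standard error (bars) of hsp-16.41, hsp-16.2 and hsf-1 in 8 comparisons of strains, the first-named strain over the second. The 4 comparisons with AEF149 on top lie between 1.60 and 4.79 for the hsp-16 genes, while hsf-1 lies between -0.17 and 0.15 throughout.

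Within the pair, the share of reads on each gene could be compared. Of the reads of both genes, hsp-16.41 held 172 of 342 in AEF149, or 50.3% (exact Clopper-Pearson 95% interval 44.9 to 55.7%). In AEF373 it held 41 of 74, or 55.4% (43.4 to 67.0%), and in AEF378 16 of 39, or 41.03% (25.6 to 57.9%). In AEF276 it held 5 of 20, or 25% (8.66 to 49.1%), and in AEF231 6 of 21, or 28.6% (11.3 to 52.2%). The intervals, which cover counting error only, of AEF276 and AEF231 overlap those of AEF378, AEF373 and AEF149. Overlap is no test, and a difference in share between strains was not tested. Per kilobase of exon, hsp-16.2 and hsp-16.41 were at like levels in AEF149, 4.75 ± 0.864 and 4.25 ± 1.19 CPM per kb.

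Across the 26 libraries the log2(CPM + 0.5) values of hsp-16.2 and hsp-16.41 had a Pearson correlation of 0.87. After each strain's mean within its batch was taken away from both genes it was 0.25. The counts are sparse outside AEF149, and the correlation is a description of libraries that share strain, batch and depth.

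**Figure D4:**
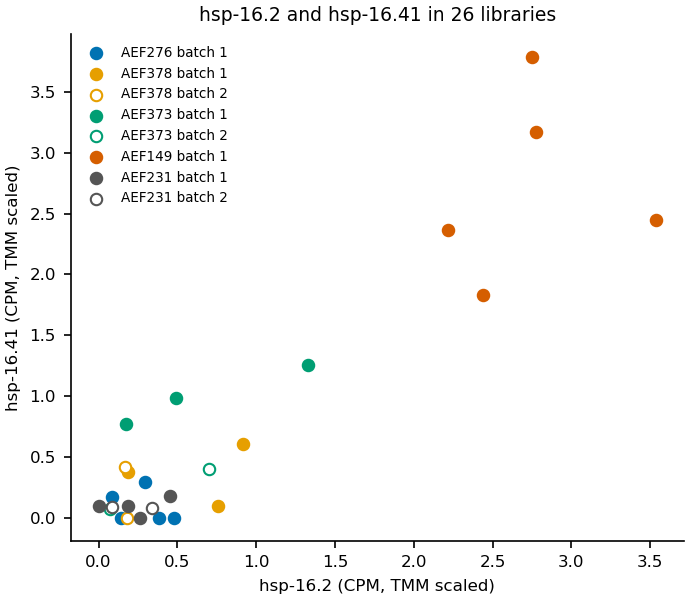
CPM of hsp-16.2 (x axis) and hsp-16.41 (y axis) in 26 libraries, coloured by strain. The AEF149 libraries lie apart at 2.22 to 3.54 CPM of hsp-16.2 and 1.83 to 3.79 CPM of hsp-16.41, and the AEF373 library with the most reads lies at 1.33 and 1.26 CPM.

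Among all other tested genes, the 10 whose pattern over the 26 libraries was most like the mean of the pair had Pearson correlations of 0.90 to 0.93. They were C18H7.1, lips-11, col-166, gfp, col-167, col-144, Y53F4B.45, R05A10.1, col-168 and T07H8.11, 4 of them with a collagen name. C18H7.1 averaged 5.88 CPM in AEF149 and 0.0611 CPM in AEF231, and col-166 averaged 111 CPM in AEF149 and 29.5 CPM in AEF231. The gfp row, which takes reads of the reporter and of any other GFP in the strain, averaged 75.2 CPM in AEF276, 163 in AEF378, 129 in AEF373, 937 in AEF149 and 67.8 in AEF231. These genes were picked by likeness, so their order of strains is a description. With strain by batch means taken away, the 10 most alike genes reached only 0.65 to 0.68, and unc-41 and nmy-3 led them.

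The 10 tested genes nearest to the pair lay up to 44031 bases away on chromosome V. Of them, 0 were higher and 2 lower in AEF149 than in AEF231. Their log2 fold changes were -0.56 to 0.63, with a median of -0.08. Over all tested genes 6.51% were higher and 11% lower in AEF149, so counts among 10 genes do not set these neighbours apart. Around the 4 genes listed at 0, 0 of 10 neighbours were higher and 2 lower in AEF149. In AEF373, 4 of those 10 were higher and 0 lower, where 17.9% of all tested genes were higher and 16.9% lower.

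Markers of other tissues differed between AEF149 and AEF231 too. Summed CPM of the 2 pharynx muscle markers was 193 to 258 in AEF149 libraries and 106 to 166 in AEF231 libraries, and both genes passed as higher. The 3 body wall muscle markers summed to 1696 to 1897 CPM in AEF149 and 2262 to 3158 in AEF231, and 2 of the 3 passed as lower. The 4 intestine markers summed to 15432 to 17617 CPM in AEF149 and 17804 to 21810 in AEF231, and 3 of the 4 passed as lower. The 4 sperm markers summed to 1.63 to 4.08 CPM in AEF149 and 10.3 to 23.02 in AEF231, and all 4 passed as lower. Of 2 tested embryo markers hch-1 passed as lower in AEF149, and 1 of 3 neuron markers passed as higher. No epidermis, oogenic germ line or larval moult marker passed there. In AEF373 the 4 larval moult markers summed to 87.7 to 175 CPM, against 13.6 to 26.9 in AEF231, and all 4 passed as higher. The embryo markers summed to 13.2 to 24.5 CPM in AEF373, against 3.29 to 6.40 in AEF231. Of the 2 tested, hch-1 was higher, at a mean of 16.7 CPM in AEF373 and 1.65 CPM in AEF231, and pes-10 was lower, with a log2 fold change of -0.96 ± 0.28 (adjusted p = 0.00577 by edgeR). The embryo marker med-1 was at 0 in all AEF378, AEF149 and AEF231 libraries. In AEF378 the larval moult markers summed to 33.1 to 70.8 CPM. The sperm markers were also lower in AEF276 than in AEF231, at 0.506 to 2.19 CPM. The part of these tissues and stages in the hsp-16 levels was not tested.

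The inducible hsp-70 was read in all 26 libraries at 1 to 14 counts, and its levels did not separate the strains. Counts were 4, 3, 4, 9 and 6 in AEF276, 8, 8, 6, 10 and 2 in AEF378, 8, 3, 13, 5 and 9 in AEF373, 3, 6, 10, 2 and 1 in AEF149, and 2 to 14 with a median of 5 in AEF231. Every strain overlapped every other. The means lay between 0.344 ± 0.283 CPM in AEF149 and 0.635 ± 0.528 CPM in AEF231. Without the filter the log2 fold changes against AEF231 were -0.60 ± 0.54 in AEF276 (adjusted p = 0.59 by edgeR), 0.05 ± 0.50 in AEF378 (adjusted p = 1 by edgeR), 0.07 ± 0.50 in AEF373 (adjusted p = 1 by edgeR) and -0.96 ± 0.55 in AEF149 (adjusted p = 0.334 by edgeR). In AEF149, where the hsp-16 pair was highest, hsp-70 thus had the lowest mean, with a difference from AEF231 that did not pass (exact permutation p = 0.329). The gene overlaps uggt-2 on the other strand without shared exon bases, and uggt-2 had 252 counts in all.

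F44E5.5 was read in 20 of 26 libraries. Its counts were 1, 1, 0, 2 and 0 in AEF276, 0, 6, 1, 3 and 0 in AEF378, 3, 3, 6, 5 and 4 in AEF373, 0, 16, 7, 11 and 4 in AEF149, and 0 to 10 with a median of 4.5 in AEF231. The AEF276 libraries were at the low end and overlapped those of AEF231, in which the batch 1 libraries had 10, 6, 5 and 4 reads and the batch 2 libraries 1 and 0. Without the filter F44E5.5 was lower in AEF276, with a log2 fold change of -2.53 ± 0.81 (adjusted p = 0.0242 by edgeR), in a fit in which 6.44% of genes were lower, while the exact permutation test without a batch term gave p = 0.0541. All AEF276 libraries are of batch 1, and within batch 1 the difference in mean log2(CPM + 0.5) was -0.90 (exact permutation p = 0.00794, the smallest that 126 splits can give). The AEF149 mean, 0.618 ± 0.482 CPM, was the highest of the 5 strains, with 1 library at 0 and 1 at 16 reads. AEF149 differed from AEF276 by 2.98 ± 0.79 (adjusted p = 0.00344 by edgeR, without the filter) and from AEF231 by 0.45 ± 0.61 (adjusted p = 0.758 by edgeR). Reads that match both F44E5.5 and its near copy F44E5.4, listed at 0, may have been dropped or placed on F44E5.5. The level of F44E5.5 is therefore uncertain.

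The transcript of hsf-1 itself varied little. CPM values were 139, 133, 139, 139 and 140.4 in AEF276, 107, 119.8, 115.4, 105 and 122 in AEF378, 126, 117, 121, 119 and 114 in AEF373, 125, 127, 115.4, 126 and 121 in AEF149, and 114 to 132 with a median of 127 in AEF231. The 5 AEF276 libraries lay above all 6 AEF231 libraries, and the other strains overlapped AEF231. The log2 fold change in AEF276 was 0.15 ± 0.05 (adjusted p = 0.0304 by edgeR), a 1.11-fold higher level, in a comparison in which 11.2% of all tested genes were higher. It missed the threshold without any one of AEF231 replicates 1 to 6 or AEF276 replicates 2, 3 and 5, with log2 fold changes of 0.09 to 0.14 and adjusted p of 0.064 to 0.256 by edgeR. In batch 1 alone it was 0.14 (adjusted p = 0.0692 by edgeR), and without the filter 0.12 (adjusted p = 0.183 by edgeR). The exact permutation test of AEF276 against AEF231 gave p = 0.00433.

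In the array strains hsf-1 was not higher than in AEF231. The log2 fold changes were -0.13 ± 0.05 in AEF378 (adjusted p = 0.0628 by edgeR), -0.06 ± 0.05 in AEF373 (adjusted p = 0.337 by edgeR) and -0.02 ± 0.05 in AEF149 (adjusted p = 0.819 by edgeR). In AEF378 the value passed without AEF231 replicate 1 (adjusted p = 0.0269 by edgeR), AEF378 replicate 2 (adjusted p = 0.0448 by edgeR) or AEF378 replicate 5 (adjusted p = 0.0275 by edgeR), and with DESeq2 (adjusted p = 0.0437). For AEF149 the 95% interval of the hsf-1 log2 fold change was -0.12 to 0.07, while those of the hsp-16 pair began at 2.27. Against AEF276, AEF149 was lower, at -0.17 ± 0.05 (adjusted p = 0.0104 by edgeR) with no overlap of libraries, where 14.9% of all tested genes were lower. That call was lost without AEF276 replicate 2 or 3, with adjusted p of at most 0.0649 by edgeR. AEF149 did not differ past the threshold from AEF378 (0.11 ± 0.05, adjusted p = 0.145 by edgeR) or from AEF373 (0.04 ± 0.05, adjusted p = 0.612 by edgeR). Between batches the change of hsf-1 differed by -0.04 ± 0.11 in AEF378 (adjusted p = 0.999 by edgeR) and by -0.13 ± 0.11 in AEF373 (adjusted p = 0.748 by edgeR).

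Per kilobase of exon, the order of levels was hsf-1, then the hsp-16 pair, then hsp-70 and F44E5.5 in AEF149, with hsf-1 at 49.5 ± 1.92 CPM per kb there. In AEF231 hsf-1 was at 50.3 ± 2.67 CPM per kb, hsp-16.2 at 0.385 ± 0.287, hsp-70 at 0.309 ± 0.257, F44E5.5 at 0.191 ± 0.162 and hsp-16.41 at 0.141 ± 0.0900. Below hsf-1, no neighbours in the AEF231 order differed beyond their spread between libraries. In AEF149 the levels of hsp-70 (0.167 ± 0.138 CPM per kb) and F44E5.5 (0.296 ± 0.230 CPM per kb) were far under those of the hsp-16 pair.

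The other small heat shock protein genes of the worm include forms made without stress. Of 11 listed, 9 were tested, and F08H9.3 (52 reads) and F08H9.4 (23 reads), the hsp-16-like genes that RefSeq names hsp-16.20 and hsp-16.21, were not. Over all tested genes 11.2% were higher and 9.08% lower in AEF276 than in AEF231, 7.68% and 5.92% in AEF378, 17.9% and 16.9% in AEF373, and 6.51% and 11% in AEF149. In AEF149, 3 of the 9 small heat shock protein genes were higher and 2 lower than in AEF231, with a median log2 fold change of 0.14, against -0.01 over all tested genes. In AEF149 hsp-17 rose by 0.75 ± 0.11 (adjusted p = 7.39e-06 by edgeR), hsp-12.2 by 0.52 ± 0.13 (adjusted p = 0.003 by edgeR) and sip-1, an embryonic small heat shock protein, by 0.25 ± 0.06 (adjusted p = 0.00108 by edgeR). The lower pair was hsp-25 (-0.30 ± 0.08, adjusted p = 0.00385 by edgeR) and hsp-12.3 (-1.07 ± 0.35, adjusted p = 0.0285 by edgeR), and the call of hsp-12.3 was lost without AEF231 replicate 1, 2 or 4 or AEF149 replicate 1, 3 or 5. In AEF373, 4 were higher and 0 lower, with a median of 0.30: hsp-12.1 (1.47 ± 0.28), hsp-17 (1.07 ± 0.10), hsp-43 (0.86 ± 0.08) and sip-1. In AEF378, 2 were higher, hsp-17 (0.64 ± 0.11) and hsp-43 (0.31 ± 0.08), and 0 lower. In AEF276, 1 was higher and 2 were lower, but sip-1 as the higher one lost the call without any of 7 libraries and hsp-12.2 as a lower one without any of 5, with AEF231 replicates 1 and 2 and AEF276 replicates 2 and 3 in both sets. There hsp-25 was at -0.28 ± 0.08 (adjusted p = 0.00881 by edgeR) and hsp-17 did not pass the threshold, at 0.28 ± 0.11 (adjusted p = 0.0798 by edgeR). Thus hsp-17 rose in all 3 array strains, at 0.64 in AEF378, 1.07 in AEF373 and 0.75 in AEF149, an order unlike that of hsp-16.41, at 1.70, 2.81 and 4.41.

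**Figure D5:**
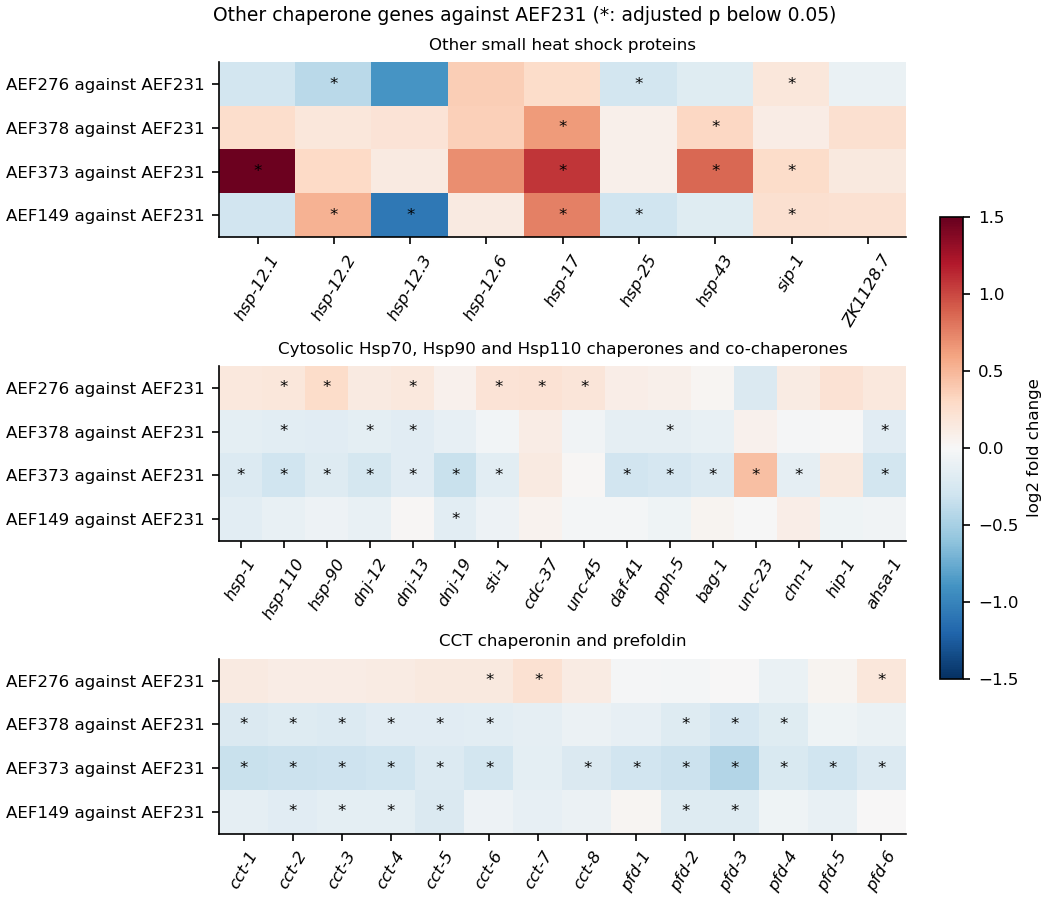
Log2 fold changes against AEF231 of the tested genes of 3 lists (panels, one column a gene: other small heat shock proteins; cytosolic Hsp70, Hsp90 and Hsp110 chaperones and co-chaperones; CCT chaperonin and prefoldin) in AEF276, AEF378, AEF373 and AEF149 (rows), with the fold change as colour and passing values marked by a star. In AEF149 the cytosolic list has 0 higher and 1 lower gene and the CCT and prefoldin list 0 higher and 6 lower.

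The cytosolic chaperones made without stress, the constitutive Hsp70, Hsp90 and Hsp110 with their co-chaperones, did not rise with the hsp-16 pair. In AEF149 0 of 16 were higher and 1 was lower than in AEF231, with log2 fold changes of -0.16 to 0.10 and a median of -0.06. The lower gene, the Hsp40 co-chaperone gene dnj-19, was at -0.16 ± 0.05 (adjusted p = 0.0304 by edgeR) and lost the call without AEF231 replicate 1, 3, 4 or 5 or AEF149 replicate 1, 2 or 4. In AEF373, 1 of 16 was higher and 12 were lower, with a median of -0.19, and dnj-19 (-0.34 ± 0.05), hsp-110 (-0.30 ± 0.05) and daf-41, the p23 co-chaperone gene (-0.29 ± 0.05), fell most. Without AEF373 replicate 3 the number of lower genes was 6. The higher one was unc-23, a BAG co-chaperone gene (0.45 ± 0.09, adjusted p = 7.26e-05 by edgeR). In AEF378, 0 were higher and 5 lower. The number of lower genes was 0 without AEF231 replicate 3 or AEF378 replicate 4, 1 without AEF231 replicate 4 or AEF378 replicate 1 or 5, and 3 without AEF231 replicate 1 or AEF378 replicate 2.

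In AEF276 the list went the other way from AEF373. There 6 of 16 were higher and 0 lower than in AEF231, with a median log2 fold change of 0.15, against 0.00 over all tested genes. The Hsp90 gene hsp-90 was at 0.27 ± 0.07 (adjusted p = 0.00661 by edgeR), its co-chaperone genes cdc-37 at 0.21 ± 0.07 (adjusted p = 0.0191 by edgeR) and sti-1 at 0.21 ± 0.06 (adjusted p = 0.0108 by edgeR). Without AEF276 replicate 2 the number of higher genes was 0, without AEF231 replicate 1 or 2 it was 1, and without AEF231 replicate 6 or AEF276 replicate 3 it was 3. The call of hsp-90 was lost without AEF231 replicate 2 or AEF276 replicate 2, and those of cdc-37 and sti-1 without these and without AEF231 replicate 1. All 4 oogenic germ line markers were also higher in AEF276, summing to 5983 to 7201 CPM there and to 5143 to 5954 CPM in AEF231, and their part in the chaperone levels was not tested.

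The CCT chaperonin and prefoldin fold actin and tubulin, and the number of their 14 subunit genes that passed as lower than in AEF231 differed between the array strains. In AEF373 13 of 14 were lower and 0 higher, with a median of -0.29 and pfd-3 at -0.44 ± 0.05 (adjusted p = 4.98e-09 by edgeR). In AEF378 9 were lower, with a median of -0.17, and in AEF149 6 were, with a median of -0.13 and cct-5 at -0.22 ± 0.06 (adjusted p = 0.00897 by edgeR), while the other 8 did not pass there. Without AEF231 replicate 3, AEF231 replicate 5 or AEF149 replicate 4 the number in AEF149 was 3. In AEF276 3 were higher and 0 lower. The number of higher genes was 8 without AEF276 replicate 1, 1 without AEF231 replicate 3 or 5 or AEF276 replicate 2 or 3, and 0 without AEF231 replicate 1, 2 or 6.

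Of the 6 tested genes that act on HSF-1, the log2 fold changes in AEF149 were -0.08 to 0.31, with adjusted p of at least 0.0886 by edgeR. In AEF276 they were -0.17 to 0.15, with adjusted p of at least 0.117 by edgeR. In AEF373 the demethylase gene jmjd-3.1 was higher by 1.16 ± 0.12 (adjusted p = 2.23e-10 by edgeR) and the kinase gene hpk-1 by 0.29 ± 0.06 (adjusted p = 0.000179 by edgeR). The gene of the HSF-1 binding protein hsb-1 was lower in AEF373, at -0.20 ± 0.07 (adjusted p = 0.0337 by edgeR), a call lost without AEF231 replicate 1, 2, 3 or 6 or AEF373 replicate 1, 2, 3 or 4. In AEF378 jmjd-3.1 was higher (0.39 ± 0.12, adjusted p = 0.0292 by edgeR) and hsb-1 lower (-0.21 ± 0.07, adjusted p = 0.0499 by edgeR), and 7 and 8 of the 11 libraries each ended these calls when left out, among them AEF231 replicates 1 and 2 and AEF378 replicates 2, 4 and 5 for both.

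Genes of other stress responses were set beside the pair, with only tested genes counted. Over all tested genes, 6.51% were higher and 11% lower in AEF149 than in AEF231. The share higher than in AEF231 was 7.68% in AEF378 and 17.9% in AEF373. Of 8 ER and mitochondrial chaperone genes, 1 was higher and 3 were lower in AEF149, among them dnj-27 at -0.33 ± 0.08 (adjusted p = 0.00266 by edgeR). The number of lower genes was 2 at most without any one library, and 1 without AEF231 replicate 5 or AEF149 replicate 2, 3 or 4. The higher gene, hsp-4, lost its call without AEF231 replicate 1 or 2 or AEF149 replicate 1, 2, 3 or 5. Of 7 genes of the hypoxia factor HIF-1, 0 were higher and 2 lower, and of 5 metal and electrophile response genes, 0 were higher and 1 lower. Without AEF231 replicate 1 the lower HIF-1 genes were 1, and in the metal and electrophile list 1 gene was higher and 0 lower. The lower metal response gene, mtl-2, also lost its call without AEF231 replicate 2, 5 or 6 or AEF149 replicate 1, 2 or 4. Of 5 genes of the FOXO factor DAF-16, which also acts on small heat shock protein genes, 1 was higher, the glyoxylate cycle gene icl-1 at 0.60 ± 0.13 (adjusted p = 0.00264 by edgeR), and 1 lower. Of 7 genes of the CUL-6 ubiquitin ligase and pals group, 2 were higher in AEF149 and 5 each in AEF378 and AEF373, where skr-5 reached 1.35 ± 0.20 (adjusted p = 5.03e-06 by edgeR) in AEF378. The number in AEF149 was 1 without AEF231 replicate 3, 4 or 5 or AEF149 replicate 1, 2, 3 or 5. In AEF149 the log2 fold changes of the tested genes of these 5 lists lay between -0.68 and 0.98, against 3.26 and 4.41 for the hsp-16 pair. The listed genes mtl-1, scl-1, numr-1, numr-2 and pals-5 did not pass the filter on low counts and are not in this range. The hsp-16 pair passed it only through AEF149, so the contrast is a description and no test.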

How the data were processed

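RNA of pooled whole day 1 adults was taken with Trizol and a column cleanup, and poly(A) libraries were made, per the labels' protocols. The authors deposited whole-number read counts per gene symbol and library; STAR 2.7.11b and the build ce11 are named in the submitters' processing notes. Not given in the sources used here are the counting tool, the annotation, the strand setting and the treatment of reads with several positions. Positions come from the Ensembl and RefSeq annotations of WBcel235, the assembly of ce11.

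Counts were used as deposited. The 10 genes, the gene lists and the tests were chosen with earlier results of these data known. edgeR 4.0.16 (R 4.3.3) was used with filterByExpr by strain, TMM scaling and robust quasi-likelihood fits of all 26 libraries with strain and batch terms; 13315 of 42533 symbols were tested, with Benjamini-Hochberg adjustment over all of them, and the common biological coefficient of variation was 8.01%. CPM is on the TMM scale. Single genes were also compared by two-sided exact permutation tests of mean log2(CPM + 0.5), whose p-values were not adjusted for the number of tests. From each list the text names at most the 3 largest changes each way past the threshold of 0.05. The 10 genes most alike were taken by Pearson correlation with the mean log2(CPM + 0.5) of hsp-16.2 and hsp-16.41, and neighbours were the 5 nearest tested genes on each side of a locus. As alternatives, fits were run with DESeq2's size factors, with DESeq2 1.42.0, with 2 other filters, without the batch term, on batch 1, with a replicate block, on the strains compared, without robust weights, with near copies summed, with a threshold of 0.01 and without each library, and permutation tests with pseudocounts of 0.1 and 2. The fit was tested on simulated counts. Sequences were not used here.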

Additional observations from a re-analysis of the deposited data

Results flagged for a closer look

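The hsf-1 level of AEF276 replicate 2, 133 CPM, stood apart from the other 4 AEF276 libraries, of which the nearest was at 139 CPM: the gap was 0.751 of the strain's whole range, above Dixon's critical value for 5 samples. Chance marks about 1 in 20 groups in this way. The library was still above every AEF231 library, and without it the log2 fold change of hsf-1 in AEF276 against AEF231 was 0.14 (adjusted p = 0.0719 by edgeR).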

How the results depend on the processing

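The passing changes of hsp-16.2 and hsp-16.41 held in every alternative that could be computed. As each library was left out, hsp-16.2 in AEF149 against AEF231 was 2.96 to 3.54 (adjusted p of at most 5.06e-05 by edgeR). There hsp-16.41 was 4.10 to 4.62 (at most 3.44e-06), and in AEF373 against AEF231 it was 2.51 to 3.04 (at most 0.00579). Both genes entered these filtered fits only through their level in AEF149, so these adjusted p are a description and no separate test. The fit without the filter is free of this choice. It gave 3.27 for hsp-16.2 and 4.42 for hsp-16.41 in AEF149 (adjusted p = 3.56e-10 and 1.67e-13 by edgeR). For hsp-16.41 in AEF373 it gave 2.81 (adjusted p = 7.95e-05 by edgeR). Neither gene entered the fit with a mean of 1 CPM, nor that of only the strains compared, other than with AEF149, and the summed near copies changed nothing because 1 of each pair is at 0 or both are.

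Values of hsf-1 changed their call. In AEF276 against AEF231 the log2 fold change was 0.12 without the filter, 0.11 with a mean of 1 CPM, 0.14 in batch 1, 0.14 with the replicate block, 0.13 with only the strains compared and 0.15 at the 0.01 threshold, all past no threshold, and 0.087 to 0.15 as each library was left out. In AEF149 against AEF276 it was -0.13 without the filter, -0.12 with a mean of 1 CPM, in batch 1 and with only the strains compared, -0.17 at the 0.01 threshold, and -0.18 to -0.14 as libraries were left out. In AEF378 against AEF231 it passed with DESeq2 at -0.13 and was -0.16 to -0.10 as libraries were left out, and in batch 1 alone the exact permutation test gave -0.11 and missed the threshold. In AEF149 against AEF231 it turned to 0.021 in batch 1 and 0.0014 with only the strains compared, and was -0.034 to 0.0089 as libraries were left out.

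Values that passed no threshold also turned. For hsp-16.2 in AEF276 against AEF231 the log2 fold change was 0.24 without a batch term, 0.18 in batch 1, 0.25 with the replicate block, and -0.40 to 0.18 as libraries were left out. For hsp-16.2 in AEF373 against AEF231 the replicate block gave 1.64, past the threshold, and leaving out libraries 0.70 to 1.66; in AEF378 against AEF373 it was -0.70 to 0.22. In exact permutation tests against AEF231, hsp-70 in AEF373 was -0.035 in batch 1. F44E5.5 was -0.20 with a pseudocount of 2 and -0.90 in batch 1 in AEF276, past the threshold, -0.014 and -0.35 in AEF373, and -0.044 in batch 1 in AEF149.

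Counts of genes past the threshold moved with the fit. AEF276 against AEF231 had 1496 higher genes, against 915 without the filter, 850 with a mean of 1 CPM, 645 in batch 1, 461 with only the strains compared, 623 at the 0.01 threshold and 606 to 1712 as libraries were left out. AEF149 against AEF276 had 1980 lower genes, against 961, 897, 932, 951 and 957 under these 5 and 608 to 2268 as libraries were left out. In batch 1 AEF378 against AEF231 had 597 higher and 427 lower genes. At the 0.01 threshold AEF276 against AEF231 had 690 lower genes, AEF378 560 higher and 311 lower, AEF373 1383 lower, and AEF149 476 higher and 920 lower; AEF149 against AEF276 had 688 higher, against AEF378 484 higher and 1254 lower, and against AEF373 959 higher; AEF378 against AEF373 had 228 higher and 472 lower, and 326 to 453 higher as libraries were left out. With DESeq2's size factors AEF149 against AEF276 had 1339 higher and 1380 lower genes (49.2% higher), against 1276 and 1980 (39.2%) with TMM. AEF276 against AEF231 had 1185 higher and 1259 lower genes (48.5% higher) with these factors, against 1496 and 1209 (55.3%) with TMM. The cause of these shifts was not tested. Of 1738 alternative values of the list genes named by rule, 1451 kept their call, 287 lost it and 0 turned.

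Replicate numbers did not pair the libraries: of 50 pairs with a shared number, deviations from strain by batch means correlated at -0.15 to 0.12, with 2 over 0.1. Where a strain had 2 libraries in a batch their deviations mirror each other, so not all pairs are separate checks. Libraries of 1 strain differed by more than counting noise in all 55 pairs. At 1 to 14 reads of hsp-70 and 0 to 16 of F44E5.5 a library, moderate changes of these genes could be missed, and the genes listed at 0 could not be assessed.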
